A study of Mus musculus with 2 samples.

Results

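The genes described are those whose products copy DNA, build the kinetochore and drive the mitotic spindle, together with the kinesin family as a whole. They were chosen by symbol alone: subunits of the Mcm helicase, the origin recognition complex, the Gins complex, the replicative polymerases, the clamp loader Rfc and the clamp Pcna, the Cenp genes, the Kif kinesins, the Aurora, Bub and Polo kinases, and a set of single genes from Top2a and Mki67 to Rrm1, Rrm2 and Tyms. The rule found 115 of the 22072 gene symbols. FPKM, a read density scaled for transcript length and library depth, was added up over the transcript rows of each symbol. FPKM reached 1 for 46 members in the control library, 48 in the other and 49 in either, or 42.6% of members beside 45.1% of all listed symbols. Cdc45, the helicase partner that the rule spells Cdc45l, is listed under its newer symbol and was not a member (FPKM 0.470 and 0.311, control first).

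RNA-seq was performed on lung cells of adult mice fed doxycycline food (625 mg/kg) for 16 days and sorted as Lin-/CD326+/CD24-intermediate, a gate meant to enrich secretory airway cells without cilia. The control mice carried tetOCre together with floxed alleles of both kinases, Mst1-flx/flx and Mst2-flx/flx. The mice of the second genotype carried these same alleles and Scgb1a1-rtTA, and all mice received doxycycline. Scgb1a1-rtTA is the reverse transactivator driven by Scgb1a1, the club cell promoter, through which doxycycline switches on Cre. Each genotype was represented by 1 library from the pooled RNA of 4 mice, so no value has a replicate error, no test was possible, and the transactivator, active Cre and the intended deletion cannot be told apart.

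Before a cell divides it licenses its origins by loading the Mcm helicase onto DNA, fires them in S phase, and then segregates the copied chromosomes through kinetochores, microtubule motors and the spindle checkpoint. Many of these genes are transcribed only in cycling cells, under E2F factors at the start of S phase and under MuvB complexes before mitosis. The bronchiolar epithelium of a healthy adult mouse divides rarely, although its club cells can re-enter the cycle. Mst1 (encoded by Stk4) and Mst2 (Stk3) are Hippo pathway kinases that restrain the growth-promoting coactivators Yap and Taz. Not every kinesin belongs to cell division: many carry cargo along microtubules or serve the cilium. For the description below, 85 members were given a role in DNA replication, chromosome segregation or cytokinesis, and the other 30 were transport kinesins, centriole and cilium genes, or genes that matched the rule by name.

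Promoter sequences show how the members differ in a way the rule did not use. RefSeq promoter windows (GRCm38.p6, 250 bases before to 50 after each start) were matched by symbol for 99 members, which have 114 windows; windows of 1 gene can overlap. Motifs of 3 kinds were searched on both strands: the CHR, a repressor element of mitotic genes (TTTGAA or TTCGAA), the box CCAAT that NF-Y binds, and the E2F site (TTTCCCGC, TTTCGCGC, TTTGCCGC or TTTGGCGC). The 250 bases before the start are shown for the mitotic genes Ube2c (chr2:164769679-164769928, plus strand) and Top2a (chr11:99024190-99024439, minus strand). They are also shown for the replication gene Mcm6 (chr1:128359706-128359955, minus strand) and for Rfc3 (chr5:151651209-151651458, minus strand). Rfc3 is the member with the largest difference on the log2(FPKM + 1) scale. Ube2c, Top2a and Mcm6 are examples rich in matches and are not typical of their groups. Capitals mark every CHR, CCAAT or E2F match, and neighbouring matches run together.
Ube2c: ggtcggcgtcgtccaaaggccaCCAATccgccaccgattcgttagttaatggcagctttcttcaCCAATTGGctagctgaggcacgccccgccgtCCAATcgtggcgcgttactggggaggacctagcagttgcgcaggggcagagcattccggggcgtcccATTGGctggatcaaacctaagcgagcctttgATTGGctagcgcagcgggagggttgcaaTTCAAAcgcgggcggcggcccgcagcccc
Top2a: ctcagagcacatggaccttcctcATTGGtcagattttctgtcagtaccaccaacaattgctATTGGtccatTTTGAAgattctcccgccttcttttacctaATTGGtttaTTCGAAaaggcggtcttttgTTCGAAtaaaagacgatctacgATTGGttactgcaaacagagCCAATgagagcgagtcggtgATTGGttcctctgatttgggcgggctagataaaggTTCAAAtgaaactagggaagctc
Mcm6: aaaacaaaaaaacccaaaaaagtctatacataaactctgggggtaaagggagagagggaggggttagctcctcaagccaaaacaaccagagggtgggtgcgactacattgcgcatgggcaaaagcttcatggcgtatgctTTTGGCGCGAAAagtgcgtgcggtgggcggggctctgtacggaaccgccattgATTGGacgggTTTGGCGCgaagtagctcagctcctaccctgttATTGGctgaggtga
Rfc3: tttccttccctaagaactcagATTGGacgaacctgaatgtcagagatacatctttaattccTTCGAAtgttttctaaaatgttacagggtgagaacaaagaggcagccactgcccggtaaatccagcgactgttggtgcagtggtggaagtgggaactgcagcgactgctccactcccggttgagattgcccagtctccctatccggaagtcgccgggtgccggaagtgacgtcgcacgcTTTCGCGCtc
The Ube2c stretch holds 6 CCAAT boxes and 1 CHR, and that of Top2a 6 CCAAT boxes and 4 CHR matches. Mcm6 has 3 E2F matches, of which a pair overlaps, and 2 CCAAT boxes. In Rfc3 there is 1 match of each kind. A match is a run of letters and not evidence that a factor binds there.

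Over the full windows, the CHR and CCAAT together were found in 10 of 12 windows of the mitotic chromosome, kinase and checkpoint genes (83.3%) and in 10 of 17 windows of the spindle and cytokinesis genes (58.8%), whereas 7.52% of all 32851 windows hold both. E2F matches were in 9 of 20 origin and helicase windows (45%) and in 7 of 16 polymerase, clamp and loader windows (43.8%), beside 2.26% of all windows. Transport kinesins lay near the background, with both the CHR and CCAAT in 1 of 13 windows (7.69%) and no E2F match. Centromere and kinetochore windows lay between, with both elements in 6 of 19 (31.6%). Both elements were in 37.8% of 45 windows of cell division members under FPKM 1 in both libraries and in 31.0% of 42 windows of those that reached it.

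The files gave no read counts. Coverage times transcript length, at an assumed 47.1 bases per read, gave about 8770000 control reads and 8340000 in the library labelled Mst1/2-deleted. This size is the median of the lowest rows, taken only between 25 and 75 bases, so it had to fall in that window. Intervals in the text are exact (Clopper-Pearson) 95% intervals of an FPKM ratio from these approximate reads, and cover counting error only. The genes meant to be deleted had signal in both libraries. Control first, FPKM was 5.38 and 4.71 for Stk4 (ratio 0.874, interval 0.783 to 0.974). It was 7.28 and 7.09 for Stk3 (ratio 0.975, interval 0.862 to 1.10). The labels do not say which exons were floxed. Among the 7 club and secretory markers, Cyp2f2 was abundant and higher in the second library (4694 and 5305), and 5 were lower there, from Cckar (57.0 and 47.6) to Scgb3a2 (691 and 256) and Scgb3a1 (477 and 121). Scgb1a1 is listed at 0 in both through a failed estimate. The alveolar type 2 marker Sftpc was more abundant than Cyp2f2 in both libraries (7888 and 10270). All 6 alveolar type 2 markers were higher in the second library (summed FPKM 9987 and 12716). Ciliated markers had higher values in the library labelled Mst1/2-deleted for 9 of 10 genes (summed FPKM 32.9 and 53.9), and alveolar type 1 markers for 6 of 7 (92.7 and 256). Leukocyte markers were lower for 7 of 8 (12.5 and 4.74), as were basal markers for 4 of 5 (21.8 and 7.52). Endothelial markers were lower for 3 of 4 (10.6 and 6.32), and mesenchymal markers for 4 of 5 (15.7 and 6.76). The part of these cell types in the member values below was not tested. In bulk RNA, fewer cells of a type and less RNA per cell cannot be told apart.

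The members lay at very different levels by role. The median FPKM was 1.20 and 1.27 for the 20 origin and helicase genes and 1.64 and 1.86 for the 16 polymerase, clamp and loader genes. It was only 0.294 and 0.389 for the 17 centromere and kinetochore genes and 0.262 and 0.356 for the 17 spindle and cytokinesis genes. Over all listed symbols the median was 0.545 and 0.539. Members reaching FPKM 1 in at least 1 library numbered 12 of 20, 11 of 16, 3 of 17 and 4 of 17 in these groups, and 4 of 12 among mitotic chromosome, kinase and checkpoint genes. Near the limit, Mcm9 (1.02 and 1.01) and Top2a (1.07 and 1.04) lay just inside it. Cdc20 (0.747 and 0.929) and Pola2 (0.910 and 0.897) lay just outside. Mcm9 overlaps Asf1a (5.18 and 5.10) and Cdc20 overlaps Elovl1 (62.4 and 79.3), so reads of these genes may enter their values. Aurkc, the Aurora kinase of meiosis, and Kif12, Kif2b and Kif4b are listed at 0 in both libraries.

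**Figure D1:**
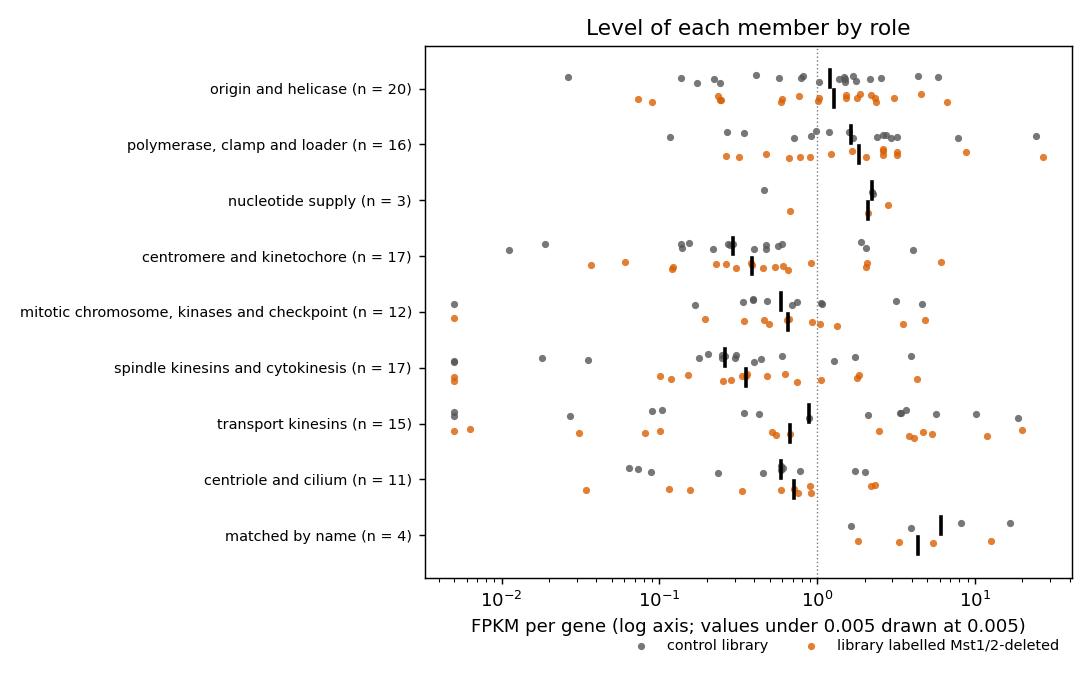
FPKM of each of the 115 members on a log axis, grouped by role, with grey points for the control library, orange points for the library labelled Mst1/2-deleted and black bars for the medians. The kinetochore and spindle groups have medians under 0.4 in both libraries, left of the dotted line at FPKM 1.

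Within the origin recognition complex, which marks origins, Orc2 to Orc6 all had FPKM of at least 1 in both libraries, from 1.49 (Orc6) to 4.39 (Orc3) in the control library. Orc1, the subunit whose transcript is known to follow the cell cycle, was far below them at 0.0265 and 0.0738, on about 2 and 5 reads. Cdc6, the loading factor that joins the complex in G1, had 0.222 and 0.248. Orc2 had 1.504 and 2.36. In the second library 0.598 of this lay on a short transcript of 1587 bases that had nearly no control signal, and the long transcript alone had 1.504 and 1.76.

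The 6 subunits of the replicative helicase form a ring in equal numbers, but their transcripts spanned a wide range. Mcm4 was highest in the control library (2.15 and 2.19), followed by Mcm6 (1.77 and 2.34), Mcm2 (1.502 and 1.80) and Mcm7 (1.38 and 1.52). Mcm3 (0.794 and 0.766) and Mcm5 (0.410 and 0.588) stayed under FPKM 1. The ratio of Mcm6 was 1.32 (interval 1.05 to 1.67), and the intervals of the other 5 subunits held 1. Mcm10, which helps to activate the loaded helicase, was low at 0.137 and 0.243, on about 13 and 21 reads. Mcm8 (0.577 and 0.603) and Mcm9, which act together in recombination repair, hardly differed.

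Gins4 stood apart within the Gins complex, a tetramer that completes the active helicase. Its FPKM was 5.83 and 6.63, whereas Gins2 had 0.810 and 1.03, Gins1 0.173 and 0.235, and Gins3 0.244 and 0.0900. The Gins2 value is less certain, because its locus overlaps Gse1 (5.92 and 6.69) and the strand of the reads is not known.

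**Figure D2:**
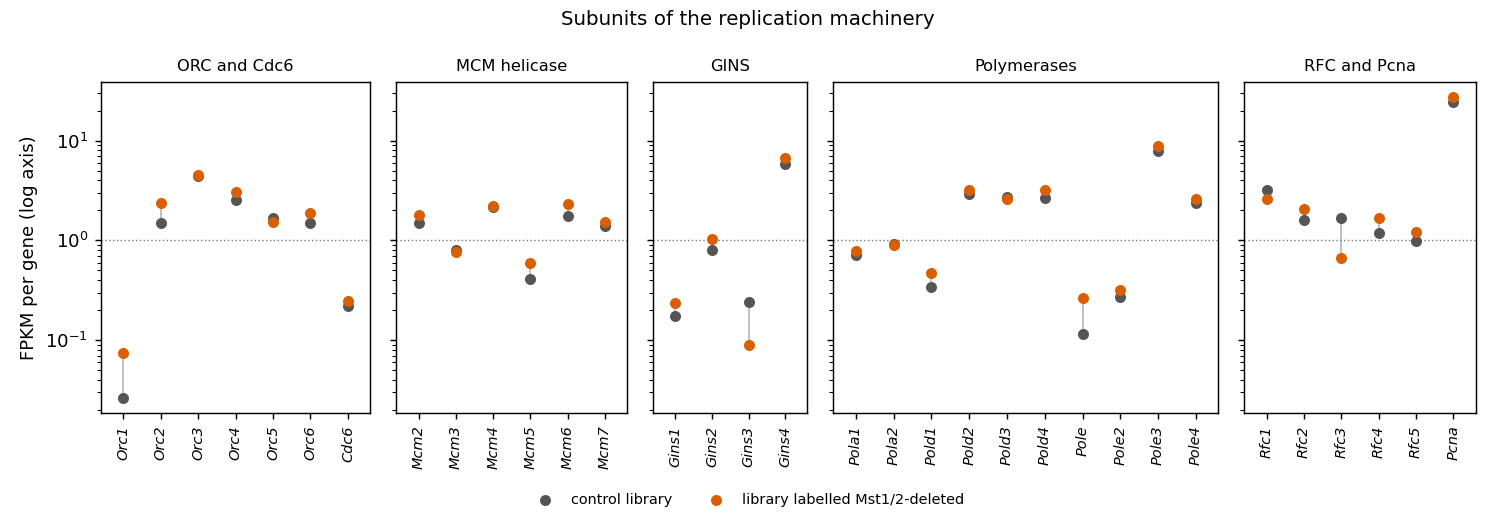
FPKM of replication subunits on a log axis, with 1 panel per complex, grey points for the control library and orange points for the library labelled Mst1/2-deleted. Orc1, Cdc6, Pole and Pole2 lie well under the dotted line at FPKM 1, while Pole3, Gins4 and Pcna lie well above it.

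All 3 catalytic polymerase subunits were under FPKM 1: Pola1 of the priming polymerase at 0.713 and 0.782, Pold1 of the lagging strand enzyme at 0.344 and 0.474, and Pole of the leading strand enzyme at 0.116 and 0.265. The accessory subunits were mostly higher, with Pold2 at 2.95 and 3.20, Pold3 at 2.74 and 2.61, Pold4 at 2.63 and 3.21 and Pole4 at 2.38 and 2.61. Pole3, a histone-fold protein that also belongs to a chromatin remodelling complex, had 7.80 and 8.77. Pole2, by contrast, had 0.268 and 0.319. The ratio of Pole was 2.28 (1.38 to 4.08), resting on about 22 and 46 reads.

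Pcna, the sliding clamp of DNA synthesis and repair (mm9, chr2:132075022-132078916), had the highest FPKM of all members, 24.4 and 27.1, a ratio of 1.11 (1.01 to 1.22). Rfc3, a small subunit of its loader (mm9, chr5:152445399-152453783), had 1.68 in control cells and 0.669 in the second library, 2.51-fold lower (1.45 to 4.33), on about 55 and 20 reads. On the log2(FPKM + 1) scale it was the only one of the 49 members at FPKM 1 that differed by 1.5-fold or more. Rfc1, the large subunit, was also lower, at 3.21 and 2.62 (ratio 0.815, interval 0.701 to 0.949). The other 3 small subunits were higher, Rfc4 at 1.19 and 1.67, Rfc2 at 1.60 and 2.05 and Rfc5 at 0.989 and 1.23, with intervals that held 1. Rfc4 overlaps the abundant Eif4a2 (57.6 and 57.1), so reads of that gene may enter its value. Among the enzymes that supply nucleotides, Rrm1, the large subunit of ribonucleotide reductase, had 2.28 and 2.80, and Tyms, thymidylate synthase, 2.22 and 2.12. Rrm2, the small subunit that cycling cells make in S phase, was lower at 0.459 and 0.678.

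At the centromere, 3 genes reached FPKM 1. Cenpb, which binds a short motif in centromeric repeats, had 4.06 and 6.09, a ratio of 1.499 (1.29 to 1.75). The scaffold gene Cenpc1 did not differ (2.05 and 2.05), and Cenpv had 1.90 and 2.07. Cenpa, the histone variant that defines the centromere, had only 0.220 and 0.389, on about 8 and 13 reads. The other members that belong to the constitutive centromere network were all under FPKM 1. Cenpi was at 0.0112 and 0.0367, Cenpt at 0.566 and 0.912 and Cenpq at 0.602 and 0.657. Subunits listed under symbols that the rule does not match were not looked up. Cenpe, a kinesin that moves chromosomes to the spindle equator, had 0.137 and 0.229 (ratio 1.67, interval 1.01 to 2.75). Cenpf, which coats the kinetochore in G2 and mitosis, had 0.398 and 0.453.

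Among the mitotic kinases and checkpoint genes, Bub3 was the most abundant at 4.60 and 4.83. Its checkpoint partners were lower, Bub1 at 0.480 and 0.664 and Bub1b, the gene of BubR1, at 0.339 and 0.644. Ube2c, the ubiquitin-conjugating enzyme of the anaphase-promoting complex (mm9, chr2:164595429-164598402), had 3.17 and 3.50 on about 80 and 79 reads, and its promoter is shown above. The activator Cdc20 had 0.747 and 0.929, to which reads of the overlapping Elovl1 may add. Mki67, the proliferation marker that coats mitotic chromosomes, had 1.05 and 1.35 (ratio 1.28, interval 1.08 to 1.497), and Top2a, which untangles them, 1.07 and 1.04 (ratio 0.970, interval 0.762 to 1.23).

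The kinases of mitosis proper also differed in direction. Aurkb, the kinase of the chromosomal passenger complex, had 0.169 and 0.461, a ratio of 2.72 (1.21 to 6.74) on about 9 and 22 reads. Birc5, the survivin gene of the same complex, went the other way at 0.391 and 0.196, 1.995-fold lower (1.09 to 3.88). Plk1 had 0.696 and 0.496 and Aurka, the spindle pole kinase, 0.390 and 0.343, with intervals that held 1. Bub1b had a ratio of 1.90 (1.20 to 2.96).

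Of the spindle and cytokinesis genes, Ect2 showed the largest difference on the log2(FPKM + 1) scale among those at FPKM 1. It encodes the exchange factor that activates RhoA for the cleavage furrow (mm9, chr3:26996144-27052800). It had 0.439 in control cells and 1.06 in the second library, a ratio of 2.42 (1.74 to 3.57) on about 47 and 104 reads, and it reached FPKM 1 only in the second. Its signal was split differently over 3 transcripts of nearly equal length. The transcript of 3986 bases held 0.438 in the control library and almost nothing in the other. There, those of 4024 and 4079 bases held 0.639 and 0.422. So few reads cannot settle which of such similar transcripts was present. Bub1 shifted in the same way, from a transcript of 4337 bases (0.474 in control) to one of 4334 bases (0.664 in the second library). Kif23, the motor of the centralspindlin complex in cytokinesis, had 1.28 and 1.78 (ratio 1.39, interval 1.08 to 1.78), whereas Prc1, which bundles the central spindle, had 1.73 and 1.84. Kif2a, a microtubule depolymerase also used outside mitosis, was the most abundant of the group at 3.93 and 4.29.

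Most spindle motors were under FPKM 1. Kif11, the Eg5 motor that separates the spindle poles, had 0.401 and 0.626 (ratio 1.56, interval 1.08 to 2.28), and Kif20b 0.306 and 0.482 (1.58, 1.07 to 2.36). Kif14, a cytokinesis kinesin, had 0.0355 and 0.118, a ratio of 3.33 (1.53 to 8.96) that rests on about 8 and 25 reads. Kif15 (0.252 and 0.362), Kif18a (0.205 and 0.356), Kif4 (0.248 and 0.337), Kif20a (0.262 and 0.283) and Tpx2, the activator of Aurora A (0.600 and 0.742), had intervals that held 1. Kif22, a chromokinesin (0.301 and 0.255), and Kif18b (0.179 and 0.151) were lower, also with intervals that held 1. Kif20a overlaps Brd8 (3.64 and 3.94) and Cdc23 (3.39 and 4.20), so reads of those genes may enter its value. Kif2c had about 1 and 7 reads, too few for a level.

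The kinesins outside cell division held most of the family's transcript. The summed FPKM of the 38 Kif genes was 62.5 and 71.0, of which the 15 transport kinesins gave 49.0 and 54.5. Kif5b, the conventional kinesin heavy chain, had 18.8 and 20.03, and Kif1b, a motor for mitochondria and synaptic vesicle precursors, 10.2 and 11.9. Kif1c had 3.66 and 5.37, a ratio of 1.47 (1.33 to 1.63), Kif13a 3.34 and 4.14 (1.24, 1.11 to 1.38), Kif13b 2.11 and 2.47, and Kif16b, an endosomal motor, 3.40 and 3.85. Kif21a went the other way at 5.66 and 4.71 (0.833, 0.758 to 0.922), as did its relative Kif21b under FPKM 1, at 0.892 and 0.552. Kif1a, best known from neurons, had 0.347 and 0.671 (1.94, 1.46 to 2.61).

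The genes of the cilium and centriole were low. In the second library 8 of 11 were higher, a share like that of all members (83 higher and 28 lower), while 9911 of all symbols were higher and 7356 lower. Of the 6 under FPKM 1 with enough reads, 4 were higher and 2 lower. Kif3a (2.03 and 2.33) and Kif3b (1.73 and 2.21), the motor subunits that carry cargo into the cilium, were the only ones to reach FPKM 1. Kif27 had 0.236 and 0.595, a ratio of 2.53 (1.62 to 4.14), and Kif9, found in motile cilia, 0.612 and 0.906 (1.48, 1.03 to 2.27). Kif19a, which shortens cilia, had 0.454 and 0.335. Plk4, the kinase of centriole duplication, had 0.593 and 0.910 (1.53, 1.07 to 2.19), and Cenpj, a centriole protein despite its name, 0.590 and 0.760. The ciliated cell markers moved in the same direction: Foxj1 had 2.41 and 3.38, and Tekt1 0.381 and 0.9395. Their part in these values was not tested.

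A few members that matched the rule by name were not given a cell division role here. Plk2 (16.7 and 12.7) and Plk3 (3.94 and 3.32) are Polo kinases induced by stress and growth signals. The ratio of Plk2 was 0.763 (0.699 to 0.832). Aurkaip1, a protein of the mitochondrial ribosome, had 8.24 and 5.40 (0.655, 0.511 to 0.842), and Mcm3ap, an mRNA export factor, 1.63 and 1.83. Had these been read as cell division genes, they would have added 3 of the 11 decreases among members at FPKM 1.

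**Figure D3:**
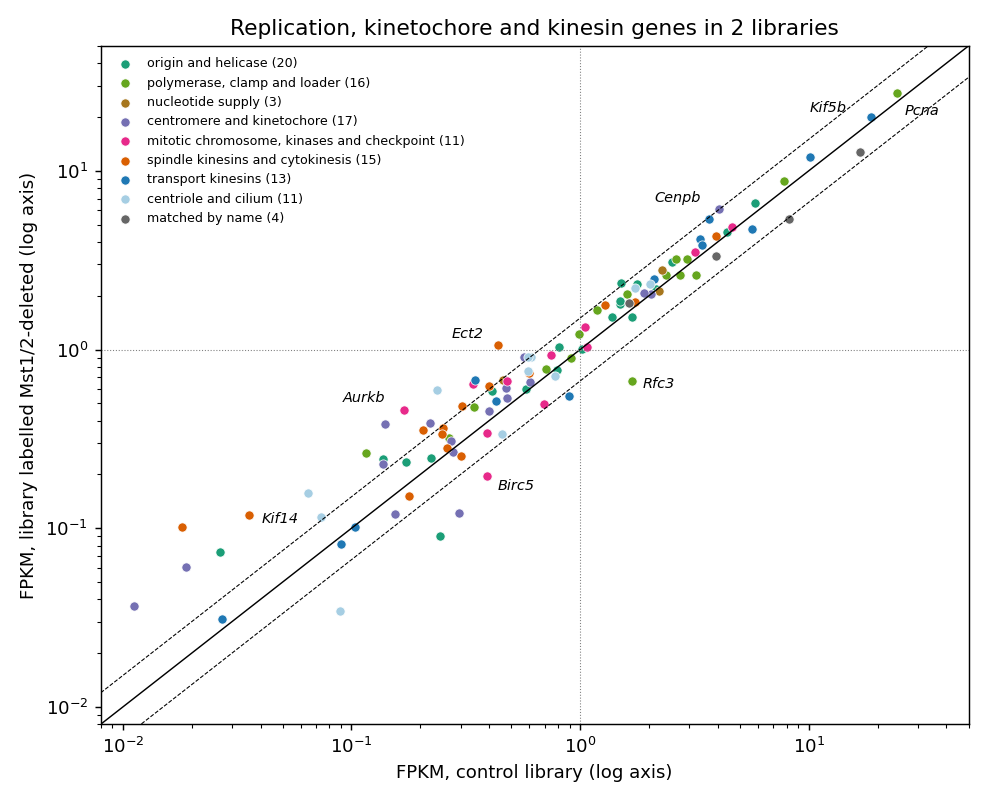
FPKM of 110 members in the control library (horizontal) and the library labelled Mst1/2-deleted (vertical), both on log axes, coloured by role; the solid line marks equal values and the dashed lines an FPKM ratio of 1.5 either way, and the 5 members at 0 in a library are left out. Of the 49 members that reach FPKM 1 in either library, Ect2, Orc2, Rfc3 and Aurkaip1 lie outside the dashed lines, and the members under FPKM 1 scatter more widely.

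Across the table, 9945 genes reached FPKM 1 in either library. On the log2(FPKM + 1) scale 3.02% of them were at least 1.5-fold higher and 2.59% at least 1.5-fold lower in the library labelled Mst1/2-deleted. Of the 49 members that entered, 0 were higher by that much and 1, Rfc3, was lower, shares near those backgrounds. Ect2, Gins2 and Rfc5 entered only through the library labelled Mst1/2-deleted and Rfc3 only through the control library. The median log2 difference of the 49 was 0.14, beside 0.07 for all 9945 genes, and 38 (77.6%) lay above 0, beside 63.2% of all 9945. Among the 49, the interval of the FPKM ratio lay above 1 for 15 and below 1 for 5, against 29.7% and 12.3% of all genes that entered.

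Below FPKM 1 the members leaned in 1 direction. Of the 66 members under FPKM 1 in both libraries, 41 had at least 5 approximate reads in each library and at least 30 in total. Of these, 32 were higher in the second library and 9 lower, with a median FPKM ratio of 1.29. All 2716 genes of the table that met the same limits were split nearly evenly, with 50.7% higher and a median ratio of 1.01. Among the 31 with a cell division role, 26 were higher and 5 lower, with a median ratio of 1.36. All 8 spindle and cytokinesis genes and all 6 centromere and kinetochore genes in this set were higher, whereas the 7 mitotic kinases and checkpoint genes split 4 to 3. The read limit shapes these counts: Kif22 and Kif18b, both lower, missed it narrowly, and so did not enter. With no minimum of reads, 45 of 62 members were higher and 17 lower, beside 49.5% higher among 7322 genes, and the spindle group split 9 to 2 and the kinetochore group 11 to 3. The interval lay above 1 for 11 of the 41 members and below 1 for 2, against 10.9% and 11.9% of the 2716 genes. Of the 31 with a cell division role, it lay above 1 for 7 (22.6%) and below 1 for 1. These 7 included 3 of the 8 spindle genes and 1 of the 6 kinetochore genes. The rest of the 11 were transport kinesins or centriole and cilium genes. The genes of such a list vary together and were chosen with earlier results known, so these counts describe the pair of libraries and are no test.

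**Figure D4:**
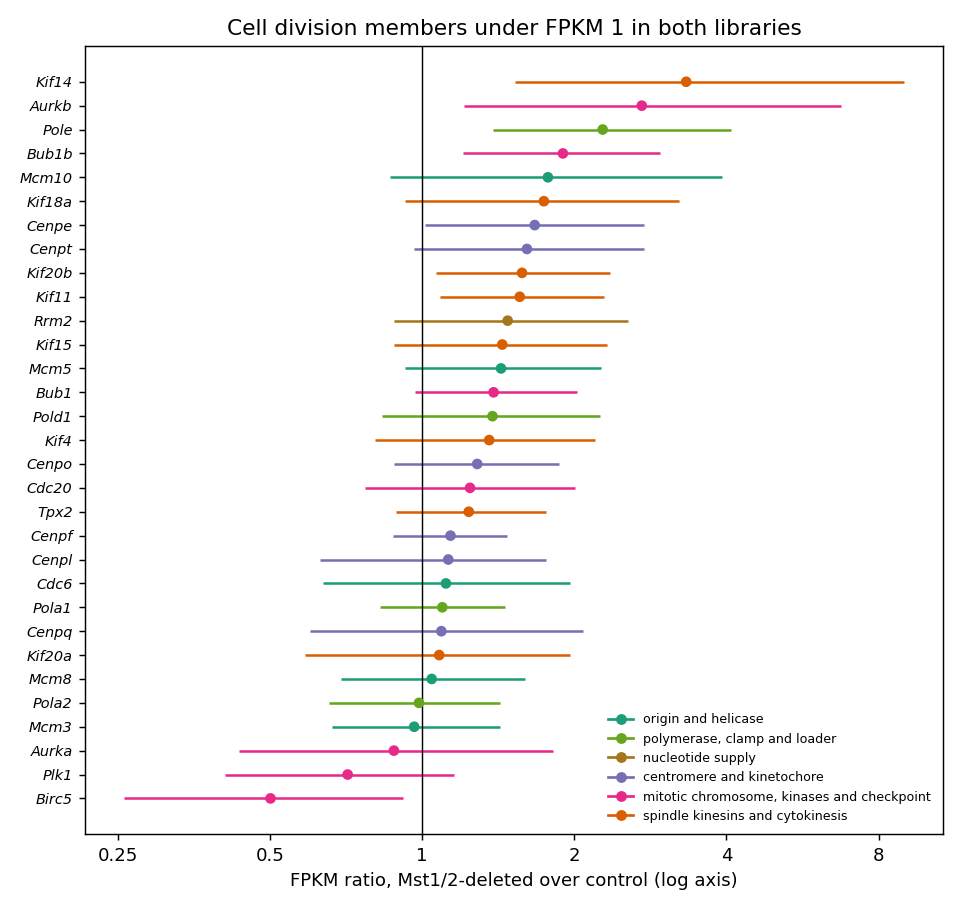
FPKM ratio of the library labelled Mst1/2-deleted over the control library for the 31 cell division members under FPKM 1 in both that met the read limits, on a log axis, with points for the ratio, lines for the 95% counting interval and colours for the role. Of the 31 points, 26 lie right of the line at 1, and Birc5 is the member whose interval lies wholly to the left.

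Other genes of the same machinery, which the rule did not take in, are given for comparison. Of 72 listed genes 71 were found in the tables. FPKM reached 1 in either library for 23 of these (32.4%), beside 45.1% of all symbols, and 0 of the 23 were 1.5-fold apart in either direction. The median log2 difference of the 23 was 0.13, beside 0.07 for all 9945 genes. Of the 23, 14 lay above and 9 below 0, a share near the 63.2% above 0 of all 9945. Of the 30 under FPKM 1 in both libraries with enough reads, 19 (63.3%) were higher and 11 lower, with a median ratio of 1.09. Among all 2716 genes that met the same limits, 50.7% were higher, with a median ratio of 1.01. The interval lay above 1 for 1 of these 30 (3.33%) and below 1 for 2 (6.67%), so the share above 1 was under that of all 2716 such genes. Tk1, thymidine kinase of the nucleotide salvage path, had 1.28 and 2.12 (1.65, 1.11 to 2.41). Fbxo5, an inhibitor of the anaphase-promoting complex, had 0.592 and 1.12 (1.90, 1.17 to 3.10), and Smc4, a condensin subunit, 5.65 and 7.32 (1.30, 1.16 to 1.45). On the other side, Gmnn, the geminin gene that blocks relicensing, had 2.75 and 1.70 (0.619, 0.406 to 0.913), and Sgol2, a protector of centromeric cohesion, 1.25 and 0.802 (0.642, 0.497 to 0.819). The cyclin-dependent kinase of mitosis, Cdk1, had 0.143 and 0.218 and its partner Ccnb1 0.227 and 0.151. Among transcription factors of the programme, Foxm1 was at 0.762 and 0.949, Mybl2 was at 0.148 and 0.255, and E2f1 was at 1.36 and 1.88 (1.39, 1.04 to 1.86).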

How the data were processed

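RNA of 2 libraries, each pooled from 4 mice of 1 genotype, were compared. The submitters' processing notes name TopHat, Cufflinks and the mm9 build, without versions or settings. Per the file headers, the authors deposited FPKM for each of 28107 RefSeq transcript entries, the same in both tables. The deposited coverage, a signal giving mean read depth per transcript, is a constant multiple of FPKM within a library. All 150 member rows had status OK. FPKM was summed per symbol. Approximate reads are coverage times length over 47.1 bases, the median of single-transcript rows between 25 and 75 bases, and depth limits the precision of low members. Differences are log2(FPKM + 1), which understates those of low genes. mm9 starts were raised by 1. Python 3.11.15, pandas 2.3.3 and scipy 1.17.1 were used. Intervals and calls were tried on data simulated with counting error alone, for genes at FPKM 1 in either library. That simulation covers neither replicate error nor the members under FPKM 1.

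The members and lists were chosen with earlier results of these data known. Named genes were members at FPKM 1, members listed singly by the rule, the Polo, Aurora and Bub kinases, Mcm2 to Mcm7, and the 10 largest ratios among members with at least 5 reads in each library and 30 in total; Cenpi, Kif2c and other low members named for a complex, a role or a range were chosen after their values were seen, as were the pathway genes named. Alternatives covered the filter, pseudocount, unit, transcript row, status, transcript length and read size. Transcript spans of 16 members overlap another listed gene, and their values depend on how Cufflinks shared reads.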

Additional observations from a re-analysis of the deposited data

How the results depend on the processing

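With 1 library per genotype, no alternative adds a replicate check. Rescaling FPKM to TPM, which lifts all values, brought 95 and 97 of the 115 members to at least 1. Of all 22072 symbols, 14070 then reached 1 in at least 1 library, a smaller share than of members, unlike with FPKM. After rescaling, 7 and 6 members were 1.5-fold higher and lower, beside 6.79% and 8.79% of the 14070 genes. With a pseudocount of 0.1 the counts were 2 higher (Ect2 and Orc2) and 2 lower (Rfc3 and Aurkaip1), beside 6.17% and 4.79% of 9945 genes. Requiring FPKM of at least 1 in both libraries removed Rfc3 and left 0 lower. Subtracting the median of genes of like transcript length, in 10 bins, brought the members' median log2 difference to 0.0541. The subtraction also removes the shift of all genes, whose median was 0.07 beside the members' 0.14 before it. Taking 100 bases as 1 read, the interval excluded 1 for 10 rather than 20 members at FPKM 1, Rfc3 and Ect2 among the 10. The intervals of members under FPKM 1 were not recomputed with that size. After the same length correction, an alternative chosen after seeing the data, 32 of the 41 low members were above their bin; with no minimum of reads, also added then, 45 members were higher. The other 25 planned values stayed within 1.5 times the main count or, for the median, within its binomial interval. Depth limits members with few reads, such as Kif14, Orc1 and Kif2c. No paired analysis was possible because each genotype has a single library.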
